A study of Mus musculus with 6 samples.

Results

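The regions described here are the 500 kb bins of the mouse autosomes that hold genes for odorant and pheromone receptors. A bin was taken when the transcription start site (TSS) of at least 1 gene whose symbol starts with Olfr, Vmn1r, Vmn2r or Taar lay in it (GENCODE annotation on mm10, any gene type) and when it had data in all 3 interaction matrices. This gave 198 receptor bins of 4727 autosomal bins with data, on 18 chromosomes. They held 1866 receptor genes: 1398 Olfr, 264 Vmn1r, 188 Vmn2r and 16 Taar genes. A further 18 bins held receptor genes but had an empty diagonal in at least 1 matrix, and their 110 genes, 62 of them Vmn1r and 47 Vmn2r, were left out. One of these bins (chr7:85000001-85500000, 10 Vmn2r genes) lacked data in myoblasts only and stood at a PC1 of -0.491 and -0.430 in the 2 kinds of myotube, on the scale explained below. The genes were unevenly spread: 73 receptor bins held 10 or more of them and together carried 1410, whereas 47 receptor bins held a single one. Adjacent receptor bins formed 96 runs, of which 53 were 1 bin long. The name cluster therefore applies to 23 large clusters with 20 or more receptor genes each, which took 100 bins and 1507 genes on 11 chromosomes.

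The matrices came from maps of chromatin contacts (Hi-C) of C2C12 cells, a line of myogenic precursors grown from mouse thigh muscle. Proliferating myoblasts (day 0), myotubes after 3 days in differentiation medium (day 3), and myotubes that received 10 µg/ml of AraC and were taken on day 7 were compared. AraC (cytosine arabinoside) kills dividing cells, and the day 3 cultures still held undifferentiated cells while the treated ones were depleted of them, so that differentiation, time and the drug cannot be told apart in the day 7 cultures. All 3 groups are the same line without a transgene or deletion, and each matrix pools 2 biological replicates, so no spread between replicates could be computed and no test between conditions was possible. Words such as rose and fell therefore describe values of single pooled matrices. The matrices hold neither expression levels nor read numbers, so marker genes of muscle were not examined here, and no counting error could be given for a coefficient. By the study's own account the pooled libraries differed in their number of valid read pairs, and the part of depth in the differences between conditions was not tested.

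Odorant receptors are G protein-coupled receptors of the olfactory epithelium, where each sensory neuron expresses a single receptor gene from 1 allele. The Olfr genes make up the largest gene family in the mouse, and nearly all of them lie in tandem arrays. Vmn1r and Vmn2r genes encode the receptors of the apical and basal neurons of the vomeronasal organ, which detects pheromones, and Taar genes encode trace amine-associated receptors, which apart from Taar1 are used as olfactory receptors. In sensory neurons the silent receptor arrays carry the heterochromatin marks H3K9me3 and H4K20me3 and gather across chromosomes. Most of these receptors are used in sensory neurons, though some odorant receptor genes, such as Olfr16, have roles in other tissues, muscle cells among them. No expression was examined here.

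The stretches around the annotated start sites differed in base composition between receptor genes and other genes. Of the 1866 receptor genes, 1172 had a promoter sequence in RefSeq (GRCm38.p6, 250 bases before to 50 after the annotated start). Their promoters had a median GC content of 35.7% and a median of 1 CG dinucleotide, and 33.5% had none. The promoters of other autosomal genes had a median GC content of 53.7% and 8 CG dinucleotides, and 4.25% had none. Some receptor stretches may not be promoters: the RefSeq start lay 2637 bases from the GENCODE start for Olfr1049 and 5439 for Olfr560. Receptor genes and other genes may thus be compared at unlike positions, which was not tested. Other genes in bins that were in compartment B throughout (defined below) had a median of 8 CG dinucleotides, against 1 for receptor genes in such bins. In bins that were in compartment A throughout, other genes had medians of 58.3% GC and 16 CG dinucleotides. The 84 promoters of receptor genes in those bins had 45.7% GC and 2 CG dinucleotides. The letters TAATTA are the core of many homeodomain sites. They occurred on either strand in 211 of the 1172 receptor promoters and in 1363 of all 25748 autosomal promoters in the table (5.29%). These letters are all A and T, and the receptor promoters had less GC. They occurred in 19.1% of promoters of receptor genes in bins in B throughout (34.7% GC). In bins in A throughout (45.7% GC) it was 7.14%. The part of base composition in these shares was not tested. These are counts of letters and show no binding.

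Promoters of 6 genes from bins that the results below turn on are shown 5′ to 3′ with CG dinucleotides in capitals. Olfr1049 stands for the bin with most receptor genes (chr2:86255642-86255941, minus strand) and Olfr560 for the class I odorant receptors beside the beta-globin genes (chr7:102753878-102754177, minus strand). Taar9 (chr10:24109485-24109784, minus strand) and Olfr524 (chr7:140202719-140203018, minus strand) lie in bins that were in A in myoblasts and in B in myotubes. Olfr316 lies in a bin that went the other way (chr11:58757417-58757716, plus strand), and Vmn1r41 in a bin that was in A in all 3 conditions (chr6:89740638-89740937, plus strand). The RefSeq and GENCODE starts coincided for Taar9 and lay 122 to 5439 bases apart for the other 5. A stretch shown therefore need not be the promoter of its gene.
Olfr1049: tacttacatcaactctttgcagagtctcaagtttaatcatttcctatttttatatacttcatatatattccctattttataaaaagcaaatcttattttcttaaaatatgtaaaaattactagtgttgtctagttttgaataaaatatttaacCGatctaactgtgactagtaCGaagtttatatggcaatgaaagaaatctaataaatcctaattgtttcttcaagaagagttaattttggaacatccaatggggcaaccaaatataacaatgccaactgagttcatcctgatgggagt
Olfr560: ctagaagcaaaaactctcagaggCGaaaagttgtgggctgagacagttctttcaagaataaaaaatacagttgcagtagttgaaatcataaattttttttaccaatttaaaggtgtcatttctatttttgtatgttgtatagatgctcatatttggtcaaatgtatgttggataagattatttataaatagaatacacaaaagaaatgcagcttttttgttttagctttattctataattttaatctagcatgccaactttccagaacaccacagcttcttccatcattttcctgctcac
Taar9: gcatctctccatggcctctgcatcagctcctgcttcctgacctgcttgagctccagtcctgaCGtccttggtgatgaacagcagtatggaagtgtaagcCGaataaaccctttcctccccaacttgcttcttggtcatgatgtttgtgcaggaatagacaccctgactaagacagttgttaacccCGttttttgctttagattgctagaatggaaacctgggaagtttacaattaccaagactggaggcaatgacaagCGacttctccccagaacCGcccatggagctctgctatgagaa
Olfr524: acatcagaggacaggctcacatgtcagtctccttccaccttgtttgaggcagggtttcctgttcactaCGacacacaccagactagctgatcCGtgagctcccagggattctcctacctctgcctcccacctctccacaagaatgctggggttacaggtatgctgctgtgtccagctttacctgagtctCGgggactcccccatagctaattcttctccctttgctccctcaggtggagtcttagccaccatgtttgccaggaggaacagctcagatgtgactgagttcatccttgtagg
Olfr316: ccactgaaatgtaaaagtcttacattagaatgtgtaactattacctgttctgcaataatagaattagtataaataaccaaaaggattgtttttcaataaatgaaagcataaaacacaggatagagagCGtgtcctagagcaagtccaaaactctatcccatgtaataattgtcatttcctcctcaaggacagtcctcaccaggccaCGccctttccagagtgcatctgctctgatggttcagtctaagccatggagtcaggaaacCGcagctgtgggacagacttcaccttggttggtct
Vmn1r41: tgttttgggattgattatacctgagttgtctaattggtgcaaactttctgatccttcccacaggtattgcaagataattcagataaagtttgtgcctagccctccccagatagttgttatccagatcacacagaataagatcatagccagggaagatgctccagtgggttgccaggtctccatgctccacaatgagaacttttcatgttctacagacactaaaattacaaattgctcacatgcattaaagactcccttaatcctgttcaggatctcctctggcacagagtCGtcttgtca
The 2 promoters from the large arrays on chromosomes 2 and 7 had 2 and 1 CG dinucleotides and 28.3% and 31.0% GC. Those of Taar9 and Olfr524, whose bins left A, had 5 and 3 and were richer in GC, at 48.7% and 53.3%. Olfr316, whose bin went to A, had 3 and 41.3%, and Vmn1r41, whose bin was in A throughout, had 1 and 42.3%, so the number of CG dinucleotides in these 6 did not follow the compartment.

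Most receptor bins lay in compartment B. Hi-C maps divide each chromosome into compartment A, which holds most active genes, and compartment B, which is gene-poor and mostly silent. The division is read from the first principal component (PC1) of a chromosome's correlation matrix, here turned so that gene-dense bins are above 0 (A) and other bins below 0 (B). PC1 was divided by its SD over the autosomal bins of the condition, so that scaled PC1 is in SD units. PC1 was below 0 in 155 of the 198 receptor bins in myoblasts, or 78.3% (exact binomial 95% interval 71.9 to 83.8%), against 61.7% of all autosomal bins. In myotubes it was 160 bins, 80.8% (74.6 to 86.0%), against 63.5%, and in AraC-treated myotubes 159 bins, 80.3% (74.1 to 85.6%), against 64.5%. In each condition the whole interval of the receptor bins lay above the share of all bins. These intervals cover counting error only, and neighbouring bins are not independent. With each run of adjacent receptor bins counted as 1, 68.8%, 68.8% and 67.7% of the 96 runs were in B. Of the receptor bins, 150 were in B in all 3 conditions, 34 were in A in all 3, and 14 were in both.

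The placement in B followed the number of receptor genes in a bin. Of the 73 bins with 10 or more receptor genes, 67 were in B in each condition, or 91.8% (83.0 to 96.9%). Of the 78 bins with 2 to 9, 75.6% were in B in myoblasts and 80.8% in both kinds of myotube. Of the 47 bins with a single receptor gene, 61.7%, 63.8% and 61.7% were in B, shares close to those of all bins. Median scaled PC1 in myoblasts was -0.788 in the first class, -0.539 in the second and -0.419 in the last, beside -0.326 over all autosomal bins. The classes were not matched for GC content or other genes. Median GC content was 38.8% in the first class and 40.5% over all receptor bins. Across receptor bins, scaled PC1 in myoblasts had a Pearson r of -0.344 with receptor genes and 0.393 with other protein-coding genes. Counted by gene, 1659 of the 1866 receptor genes, 88.9%, lay in bins that were in B throughout, whereas 32.0% of the 18958 other protein-coding genes did. The 2 sets are unlike in gene type, since only 1402 of the 1866 receptor genes are protein-coding.

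**Figure D1:**
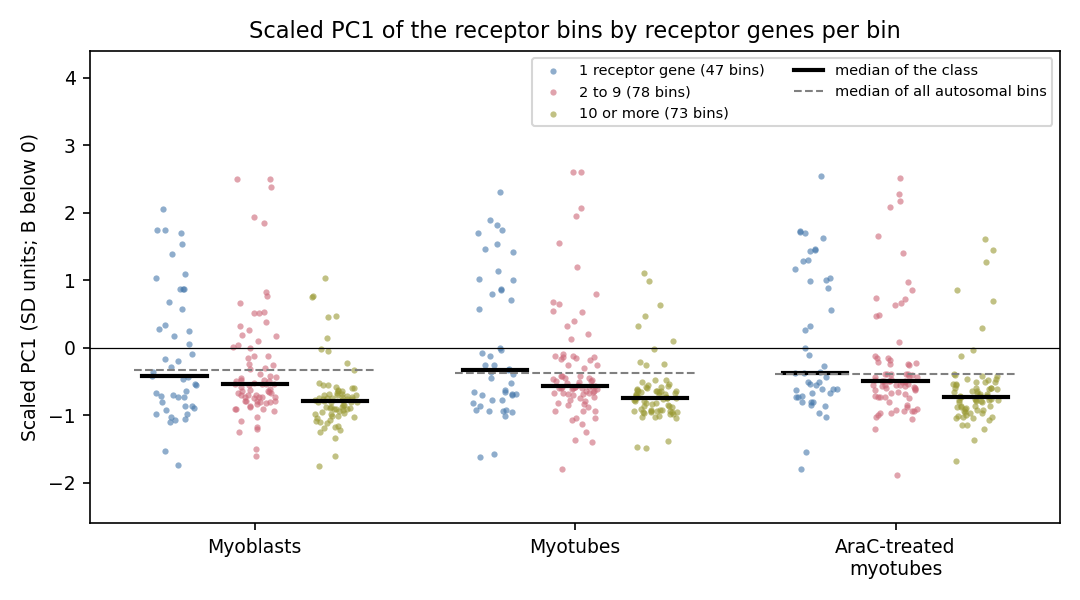
Scaled PC1 (SD units, B below 0) of each receptor bin in the 3 conditions, by the number of receptor genes in the bin. Points are bins, black lines the medians of a class and dashed lines the medians of all autosomal bins; in each condition the class with 10 or more genes has its median lowest, at -0.788, -0.740 and -0.727.

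The shares of the 3 large families overlapped. Bins with Olfr genes were in B in 75.4%, 77.0% and 77.0% of 126 cases in myoblasts, myotubes and AraC-treated myotubes. Bins with Vmn1r genes were in B in 84.8%, 87.9% and 87.9% of 33 cases, and bins with Vmn2r genes in 88.5%, 90.4% and 88.5% of 52 cases. Their intervals in myoblasts ran from 66.9 to 82.6% for Olfr, 68.1 to 94.9% for Vmn1r and 76.6 to 95.6% for Vmn2r. By gene, 89.1% of Olfr, 88.6% of Vmn1r and 95.2% of Vmn2r genes lay in bins that were in B throughout. The Taar genes stood apart: none of the 16 did, since their 2 bins were in A in myoblasts.

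The receptor bins were compared with other bins of like gene content, since gene number and compartment go together along the genome. All 32 receptor bins without any other protein-coding TSS were in B in each condition, beside 86.1%, 88.0% and 88.7% of the 1146 bins that had neither receptor genes nor a protein-coding TSS. Among bins with 5 to 9 other protein-coding genes, 72.5% of 51 receptor bins and 37.7% of 868 other bins were in B in myoblasts. Among bins with 10 or more, the shares were 50.0% of 34 and 21.6% of 515. The share in B was higher in receptor bins in each class and each condition, with overlapping intervals only for bins without other genes in both kinds of myotube. The picture was less uniform for base composition. The autosomal bins were split into 5 equal classes by GC content. In the class with the lowest GC content (35.0 to 38.4%), 100% of 37 receptor bins and 91.1% of other bins were in B in myoblasts, and in the next class 95.3% of 64 and 80.1%. In the 2 classes with most GC the shares were 53.8% against 45.9% and 22.2% against 27.4%, within the counting error of the 26 and 18 receptor bins there. Across the 198 receptor bins, GC content and scaled PC1 had a Pearson r of 0.563 in myoblasts, near the 0.527 of the 4529 other bins; these points share chromosomes and base composition, and r is given as a description.

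**Figure D2:**
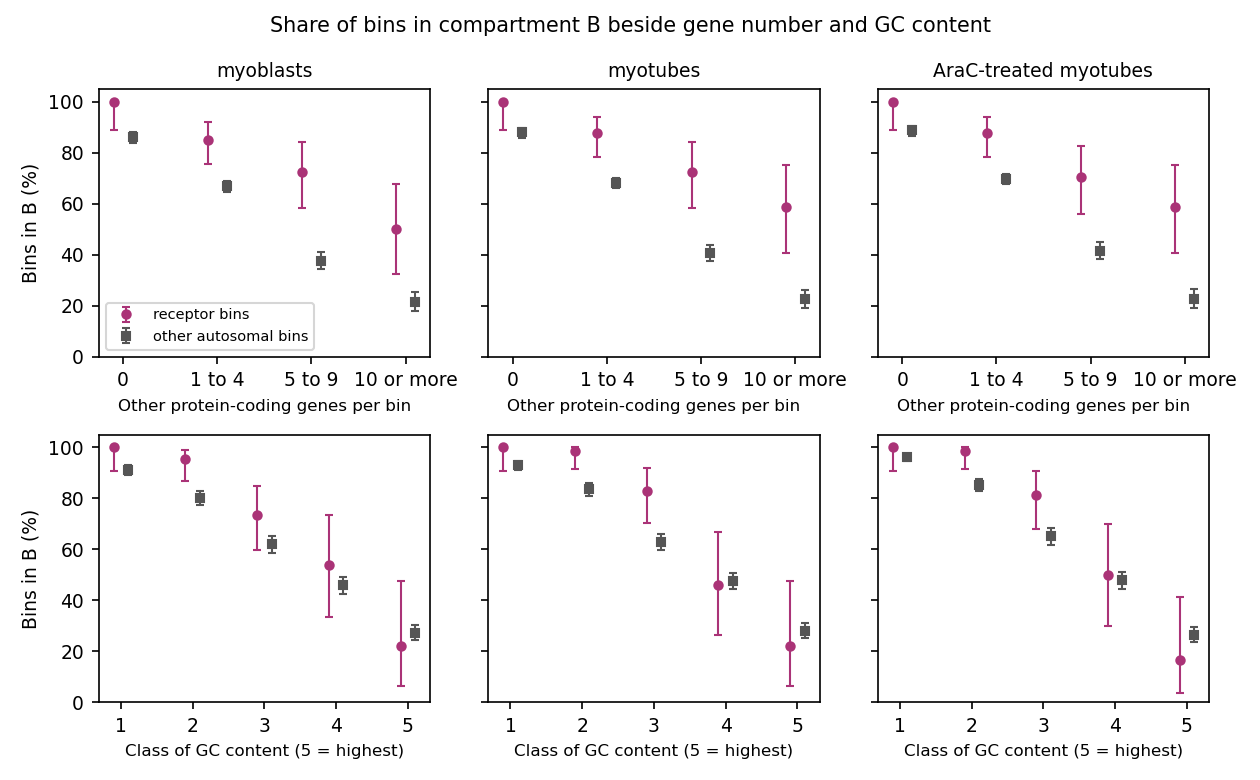
Percent of bins in compartment B in each condition, for receptor bins (circles) and other autosomal bins (squares), by the number of other protein-coding genes in the bin (upper row) and by 5 equal classes of GC content (lower row). Bars are exact binomial 95% intervals; the receptor bins lie higher in every class of the upper row and in the 3 classes with least GC, but not in the class with most GC.

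Other sequence features set the receptor bins apart as well. Their median share of soft-masked sequence, which marks repeats, was 42.9% (95% interval of the median 41.0 to 45.9%), against 31.1% (30.8 to 31.4%) in other bins and 35.0% in other bins that were in B throughout. It rose to 47.1% in bins with 10 or more receptor genes. Sites of HindIII, the enzyme that cut the libraries, numbered 318 per Mb in receptor bins and 324 per Mb in other bins, so the cutting density was similar. The 18 receptor-bearing bins without data in at least 1 matrix were more repetitive still, with a median of 57.9% soft-masked sequence, although the highest value, 68.3%, was that of a bin with data. Of these, 13 lay on chromosome 7, in the Vmn2r array from 7500001 to 10000000, the Vmn1r array from 20000001 to 23500000 and the bin from 85000001 to 85500000.

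Of the 23 large clusters, 20 had a mean PC1 below 0 in all 3 conditions, and in 15 every bin was in B throughout. The largest was the Olfr array of chromosome 2 (mm10 chr2:85000001-90500000, Olfr987 to Olfr1274-ps), with 287 receptor genes in 11 bins. Its mean scaled PC1 was -1.09, -0.943 and -0.915 in myoblasts, myotubes and AraC-treated myotubes, and all its bins were in B. Within it lies the bin with most receptor genes, 42 from Olfr1032 to Olfr1075-ps1 and no other protein-coding gene (chr2:86000001-86500000). That bin stood at -1.02, -0.920 and -0.912 in the same order. The 2 next bins by number held 36 receptor genes each: Olfr996 to Olfr1031 with 4833423E24Rik at -1.19, -0.937 and -0.918, and Olfr1127-ps1 to Olfr1159-ps1 with Pramel6 at -1.16, -0.950 and -0.857. All 3 were deep in B, and their scaled PC1 moved toward 0 by a fraction of an SD. Not divided by its SD, PC1 of all 3 moved away from 0 instead. In the bin with most receptor genes it was -0.875, -1.48 and -1.24. The direction of these moves thus depends on the scaling.

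The class I odorant receptors, the older branch of the family, fill a single array on chromosome 7 (chr7:102000001-105500000, Olfr543 to Olfr692, 156 genes in 7 bins). Its mean scaled PC1 was -0.590, -0.492 and -0.485. The first of its bins, with 3 receptor genes, was in A in all 3 conditions (0.194, 0.645 and 0.639), and the other 6 were in B. The bin from Olfr546-ps1 to Olfr578 with 35 receptor genes, Trim21 and Trim68 stood at -0.726, -0.713 and -0.715. The bin from Olfr610 to Olfr638, also with 35, contains the beta-globin genes Hbb-bt, Hbb-bs and Hbb-bh2, which erythroid cells express, and was less negative at -0.519, -0.474 and -0.472. The neighbouring class II array (chr7:106500001-109000000, Olfr693 to Olfr519, 80 genes) was more negative, with means of -1.03, -0.858 and -0.771. The Olfr array of chromosome 9 (chr9:37500001-40500000, Olfr160 to Olfr986, 123 genes in 6 bins) went the opposite way in scaled PC1, from -0.853 to -0.933 and -1.03.

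**Figure D3:**
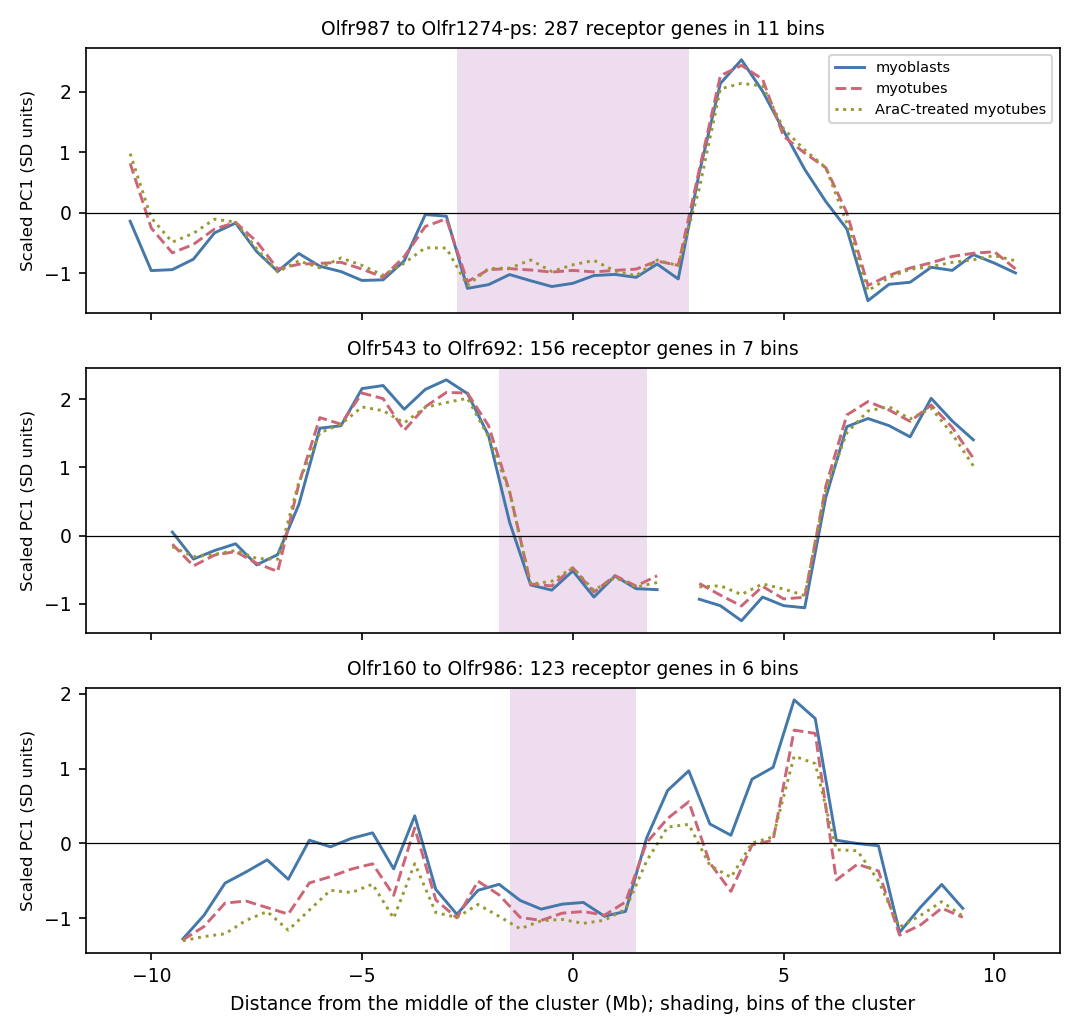
Scaled PC1 (SD units) along the 3 clusters with most receptor genes, by distance in Mb from the middle of the cluster, in myoblasts (solid), myotubes (dashed) and AraC-treated myotubes (dotted). Shading marks the bins of the cluster; inside it the 3 lines lie below 0 except at the left edge of the array from Olfr543 to Olfr692, and gaps are bins without data.

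The other large clusters were mostly of the same kind. The lowest mean was that of the Olfr array on chromosome 11 from Olfr20 to Olfr412 (chr11:73000001-74500000, 44 genes), at -1.62, -1.37 and -1.19. The 8 bins of chromosome 17 from Vmn2r90 to Vmn1r-ps150 (chr17:17500001-21500000, 36 Vmn2r and 24 Vmn1r genes) stood at -0.750, -0.834 and -0.900. The chromosome 13 array from Olfr1370 to Vmn1r-ps135 (chr13:21000001-23500000, 70 Vmn1r and 13 Olfr genes), which also holds histone genes such as Hist1h2bl and Hist1h2ah, stood at -0.559, -0.663 and -0.731. The arrays of chromosomes 19 (Olfr1417 to Olfr1505, 91 genes), 17 (Olfr90 to Olfr136, 58 genes, in the major histocompatibility region), 9 (Olfr24 to Olfr18, 49 genes) and 16 (Olfr172 to Olfr209, 32 genes) had myoblast means of -0.691, -0.785, -0.943 and -0.521. Apart from 2 clusters on chromosomes 6 and 7 described below among the exceptions, the remaining arrays on chromosomes 2, 6, 7, 10 and 14 had means below 0 in all 3 conditions, the weakest being the chromosome 6 array from Olfr459 to Olfr47 in myoblasts, at -0.103, and the chromosome 10 array from Olfr9 to Vmn2r87 in both kinds of myotube, at -0.0729 and -0.156. The values place nearly all of the arrays in B. PC1 was taken within each chromosome and divided by the SD over all autosomal bins, not by that of the chromosome. Depths of arrays on different chromosomes may therefore not be on a common scale, which was not tested.

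PC1 was higher beyond the array edges. Averaged over the large clusters, the second bin inside an edge had a mean scaled PC1 of -0.767 ± 0.368 (SD over 38 bins) in myoblasts and the outermost bin -0.512 ± 0.589 (46 bins). The first bin outside stood at -0.0637 ± 0.794 (42 bins), and the third bin outside at 0.416 ± 1.16 (39 bins). Farther out the means were lower again, 0.241 in the fourth bin and 0.297 in the fifth. The share in B fell from 94.7% to 82.6% inside the edge and to 66.7% in the first bin outside and 41.0% in the third, and was 51.4% and 43.6% in the fourth bin and the fifth. In AraC-treated myotubes the same positions had 100%, 84.8%, 69.0%, 46.2%, 56.8% and 56.4%. The values outside the arrays varied more than those inside.

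The exceptions were 7 bins with 10 or more receptor genes that were in A in at least 1 condition. The Vmn1r cluster on chromosome 6 from Vmn1r-ps25 to Vmn1r54 (chr6:89500001-90500000, 23 genes in 2 bins) was in A throughout. Its first bin, with Chchd6 and Txnrd3, a thioredoxin reductase, stood at 1.03, 1.10 and 1.45, and its second at 0.451, 0.634 and 1.26. The bin of 10 receptor genes on chromosome 15 from Olfr288 to Olfr278-ps1 (chr15:98000001-98500000) holds Pfkm, the muscle phosphofructokinase, Col2a1, a cartilage collagen, and the SUMO protease Senp1, and stood at 0.746, 0.987 and 1.61. The bin of 15 receptor genes on chromosome 4 from Olfr62 to Olfr1328 (chr4:118500001-119000000) stood at 0.141, 0.0947 and 0.849. All 4 of these had their highest value in AraC-treated myotubes. The chromosome 7 cluster from Olfr522 to Olfr542-ps1 (chr7:140000001-141000000, 25 genes) went down instead. Its bin with Cyp2e1, a liver cytochrome P450, and Syce1 fell through 0.763, 0.469 and 0.297, and its bin with Zfp511, Tubgcp2 and Msx3 from 0.472 to -0.0165 and -0.0403. PC1 of the Cyp2e1 bin not divided by its SD was 0.656, 0.755 and 0.403. The seventh bin is that of Olfr331 to Olfr311 on chromosome 11, described below. These 7 bins held between 2 and 18 other protein-coding genes.

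Changes of compartment were few. The sign of PC1 differed between myoblasts and myotubes in 13 of 198 receptor bins, 6.57% (3.54 to 10.97%), against 7.32% of all autosomal bins. Between myoblasts and AraC-treated myotubes it was 12 bins, 6.06% (3.17 to 10.3%), against 10.2%, and between the 2 kinds of myotube 3 bins, 1.52% (0.314 to 4.36%), against 5.12%. The first share was near that of all bins. For the last pair the interval of the receptor bins lay below that share, and for myoblasts and AraC-treated myotubes its upper end was just above it. Of the 1146 bins with neither a receptor gene nor a protein-coding TSS, 3.93%, 6.81% and 3.93% changed in the 3 pairs. These shares lay inside the intervals of the receptor bins, so few changes were not particular to receptor bins. Of the 13 bins, 9 left A and 4 left B. The pairs share matrices, so the counts are not independent. All 13 had small values on at least 1 side: without the bins whose absolute PC1 was among the lowest 20% of their chromosome in either condition, 0 of 160 receptor bins changed between myoblasts and myotubes, beside 0.377% of all bins left.

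The Taar cluster was the only family that changed as a whole. All 16 genes lie in 2 adjacent bins of chromosome 10. The bin from Taar1 to Taar7b (chr10:23500001-24000000), which also holds the ribosomal protein gene Rps12, the transporter gene Slc18b1 and the vanin gene Vnn3, had scaled PC1 of 0.265 in myoblasts, -0.153 at day 3 and -0.177 at day 7 with AraC. The bin from Taar7c-ps to Taar9 (chr10:24000001-24500000), with the syntaxin gene Stx7 and Moxd1, had 0.518, -0.189 and -0.256. Both were in A in myoblasts and weakly in B in both kinds of myotube. Their values along the chromosome reversed too, as described below. PC1 is taken from those same values, so the reversal is not separate evidence.

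A large Olfr bin moved the other way. The bin from Olfr331 to Olfr311 on chromosome 11 (chr11:58500001-59000000), with 20 receptor genes and 12 other protein-coding genes including 2210407C18Rik, Trim58 and Fam183b, stood at -0.227 in myoblasts, 0.322 at day 3 and 0.688 at day 7 with AraC. The 4-gene bin from Olfr161 to Olfr15 on chromosome 16 moved likewise, from -0.157 to 0.324 and 0.737; it was singled out after its values were seen. The largest rise among receptor bins was in a bin with a single pseudogene, Olfr1397-ps1, beside Axin2, a negative regulator of Wnt signalling (chr11:108500001-109000000), from -1.06 to 0.00285 and 0.554. The other largest rises, with single receptor genes, were within A: the bin of Vmn2r-ps24 with Zfp68 rose from 0.340 to 1.02, that of Olfr9 with Esyt1, Zc3h10 and Rpl41 from 0.866 to 1.53, and that of Vmn2r-ps25 with Stard13 from 0.867 to 1.42. All but 1 of these rises kept or gained height in AraC-treated myotubes, the exception being the Olfr9 bin, at 1.17.

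Besides the Taar7c-ps to Taar9 and Olfr522 to Olfr535 bins, the largest falls were as follows. The bin of Olfr461 and Olfr460 on chromosome 6, with the taste receptor gene Tas2r138, Prss37 and Clec5a, fell from 0.380 to -0.257. The bin from Olfr70 to Olfr155 on chromosome 4, with Car9, Tpm2, which encodes beta-tropomyosin, and Creb3, fell from 2.38 to 1.94 and stayed in A. Its PC1 not divided by the SD rose, from 2.04 to 3.13. The bin from Olfr1366 to Olfr1359 on chromosome 13, with Zkscan8 and Hist1h2bl, fell from 0.00540 to -0.425. No receptor bin with 10 or more genes changed sign between the 2 kinds of myotube, and 2 of 73 did between myoblasts and myotubes, the Olfr331 to Olfr311 bin and the Olfr522 to Olfr535 bin.

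**Figure D4:**
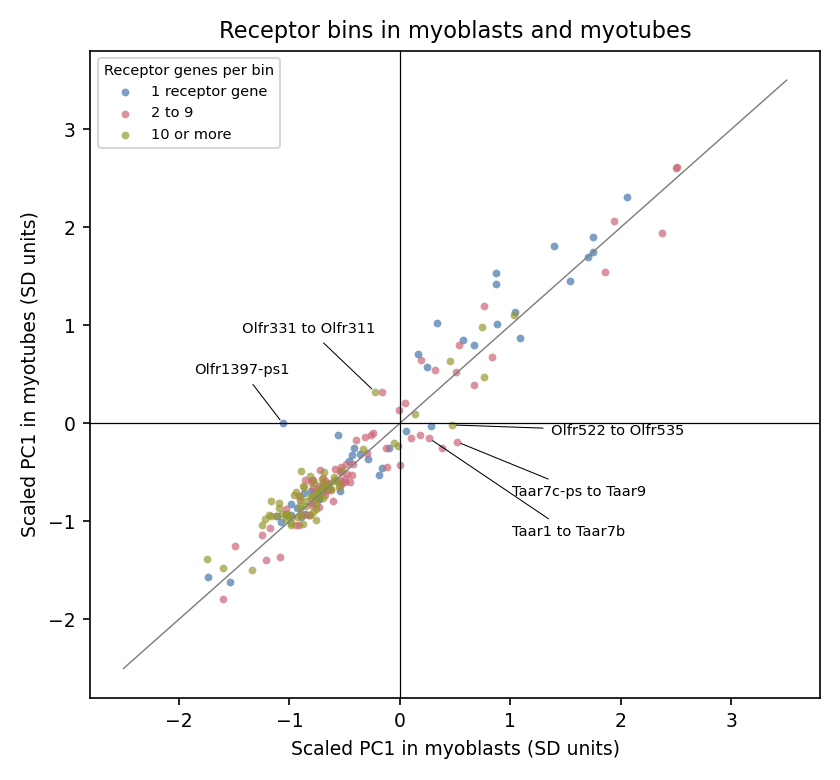
Scaled PC1 (SD units) of the 198 receptor bins in myoblasts and in myotubes, coloured by the number of receptor genes, with the diagonal of equal values. Named points are bins in the upper left (B to A) and lower right (A to B) parts of the plot, which together hold 13 bins.

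The shift of the set as a whole was small and depended on how PC1 was computed. The median change of scaled PC1 over the receptor bins was 0.0465 from myoblasts to myotubes and 0.0509 from myoblasts to AraC-treated myotubes, beside -0.0119 and -0.0229 over all bins, and 123 of 198 bins were higher in the later condition in each case. The first of these turned to -0.000839 when PC1 was taken from the correlations with other autosomes and to -0.00574 without centring, and both turned negative when PC1 was not divided by its SD. A change of this size has no settled direction.

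Like autosomal bins at large, the receptor bins mostly kept their pattern of correlations through differentiation. For each bin the correlation coefficients with all other bins of its chromosome were compared between conditions by Pearson's r, called the profile r here. The median profile r of the receptor bins was 0.904 for myoblasts against myotubes, 0.863 for myoblasts against AraC-treated myotubes and 0.956 for the 2 kinds of myotube. Over all autosomal bins it was 0.877, 0.839 and 0.947, and over bins with neither receptor gene nor protein-coding TSS 0.887, 0.851 and 0.947. In bins with 10 or more receptor genes it reached 0.923, 0.889 and 0.961. A profile r below 0, which means that the pattern reversed, was found in 7 receptor bins, 3.54% (1.43 to 7.15%), between myoblasts and myotubes, against 3.28% of all bins. It was found in 7, again 3.54%, between myoblasts and AraC-treated myotubes, against 5.80%, and in none (up to 1.85%) between the 2 kinds of myotube, against 1.16%. The receptor bins were thus near the background for the first pair and within counting error of it for the others.

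The reversed bins were mostly those that changed compartment. The lowest profile r between myoblasts and myotubes was -0.525, in the Olfr1397-ps1 bin with Axin2, followed by -0.509 in the Taar7c-ps to Taar9 bin and -0.277 in the bin of Olfr266 on chromosome 3 with Dram2, Cept1 and Lrif1. Between myoblasts and AraC-treated myotubes the first 2 had -0.625 and -0.589, and the Taar1 to Taar7b bin -0.315. Both Taar bins had high values between the 2 kinds of myotube, 0.853 and 0.857. The lowest values of that last pair were 0.0451 in the bin of Olfr19 with Fgd4, Spag6l and Igll1, 0.320 in the Olfr536 to Olfr542-ps1 bin, and 0.362 in the bin of Olfr49 with Dad1, Abhd4 and Oxa1l. In these the pattern differed between the day 3 and day 7 cultures without a reversal.

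Because receptor arrays of different chromosomes gather in sensory neurons, the correlation coefficients between receptor bins on different autosomes were set beside those of other bins. A positive coefficient means that 2 bins have like contact patterns, and it does not measure contact between them. Over the 17831 pairs of receptor bins the mean was 0.00985, 0.0238 and 0.0138 in myoblasts, myotubes and AraC-treated myotubes, with SDs over pairs of 0.0325, 0.0691 and 0.0586. Over all autosomal pairs it was 0.00526, 0.00743 and 0.00306. Pairs of bins with 10 or more receptor genes had higher means, 0.0183, 0.0501 and 0.0333. Among bins in B throughout, the means of receptor bins were near those of other bins: 0.0253, 0.0657 and 0.0467 for pairs of receptor bins, 0.0220, 0.0632 and 0.0463 for pairs of other bins, and 0.0227, 0.0676 and 0.0493 for pairs of bins without protein-coding TSS. Whether these means differ was not tested, since pairs share bins. Receptor bins in B paired with other bins in B gave 0.0232, 0.0641 and 0.0463, close to both. Paired with other bins in A throughout, they had means of -0.0310, -0.0766 and -0.0628. These means over pairs with receptor bins were farther from 0 in both kinds of myotube than in myoblasts, as was the SD over all autosomal pairs, which was 0.0446, 0.0890 and 0.0732. The sets in B throughout were not matched for PC1, so bins were also split into 5 equal classes by PC1. In the class with the lowest PC1, pairs of receptor bins had 0.0293, 0.0774 and 0.0530 and pairs of other bins 0.0382, 0.0977 and 0.0706. The next class had the other order, 0.0265, 0.0711 and 0.0511 against 0.0221, 0.0659 and 0.0482. These differences were not tested either.

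**Figure D5:**
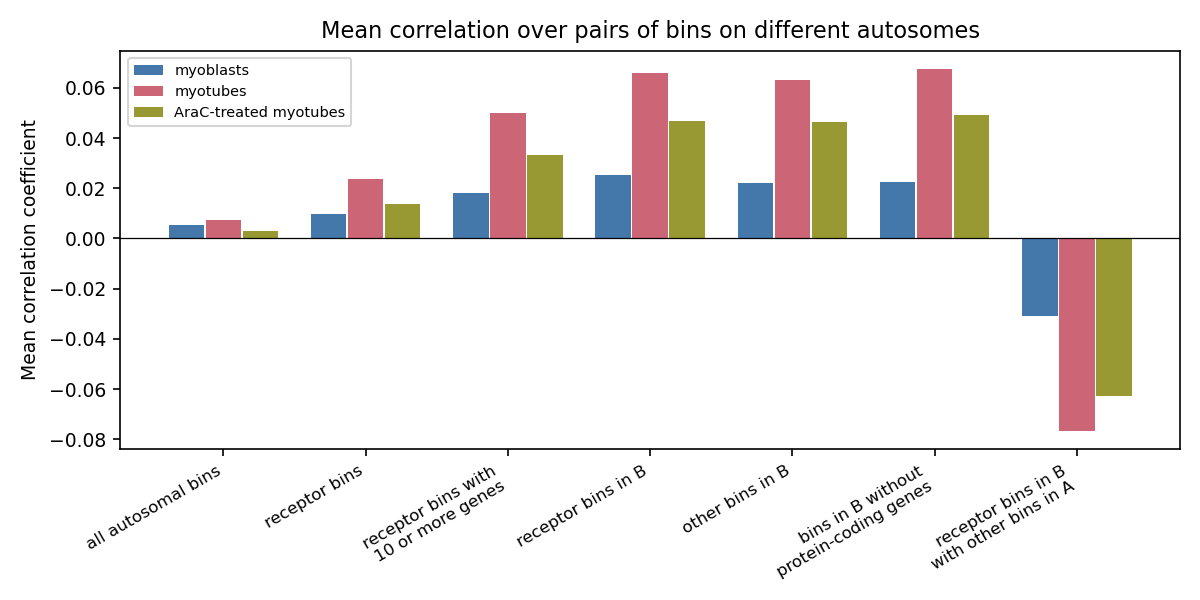
Mean correlation coefficient over pairs of bins on different autosomes in the 3 conditions (colours), for 7 kinds of pair (bins in B or A are those in that compartment in all 3 conditions). The bars of receptor bins in B (0.0253, 0.0657 and 0.0467) and of other bins in B (0.0220, 0.0632 and 0.0463) are nearly as high as each other.

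Among the families the Vmn1r bins had the highest means. Pairs of Olfr bins in B without another receptor family had means of 0.0242, 0.0648 and 0.0476, pairs of Vmn2r bins 0.0239, 0.0598 and 0.0421, and pairs of Vmn1r bins 0.0324, 0.0804 and 0.0537 over 193 pairs. Olfr bins paired with Vmn1r bins had 0.0269, 0.0697 and 0.0485. These sets had 81 Olfr, 32 Vmn2r and 23 Vmn1r bins. The Vmn1r set includes the bins from 3000001 to 3500000 of chromosomes 4, 6 and 18, near the chromosome start. Bins at that position were on chromosome 9 in the Olfr set and chromosome 8 in the Vmn2r set. The part of position was not tested, nor were the differences between families. The 3 highest pairs among bins with 10 or more receptor genes joined bins that were in A in both kinds of myotube. The Olfr288 to Olfr278-ps1 bin of chromosome 15 and the Olfr62 to Olfr1328 bin of chromosome 4 had 0.0735, 0.142 and 0.293. The first of these with the Olfr331 to Olfr311 bin had 0.0106, 0.178 and 0.256, and with the Vmn1r-ps25 to Vmn1r-ps29 bin 0.0449, 0.163 and 0.205. The lowest pairs were of the same chromosome 15 bin with arrays in B: with Olfr852-ps1 to Olfr864-ps1 on chromosome 9 (-0.0526, -0.0785 and -0.0908), with Olfr146 to Olfr44 on chromosome 9 (-0.0410, -0.0751 and -0.0938) and with Olfr1477 to Olfr1505 on chromosome 19 (-0.0498, -0.0690 and -0.0836). Averaged over its pairs with large clusters of other chromosomes, a large cluster had a mean between -0.00928 and 0.0297 in myoblasts, between -0.0300 and 0.0708 in myotubes and between -0.0482 and 0.0544 in AraC-treated myotubes.

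On the same chromosome, receptor bins in B had somewhat higher values than other bins in B. Over pairs more than 10 Mb apart the mean was 0.0601 ± 0.0270 in myoblasts (SD over 799 pairs), 0.0963 ± 0.0336 at day 3 and 0.0744 ± 0.0268 at day 7 with AraC. For other bins in B it was 0.0421 ± 0.0287, 0.0833 ± 0.0395 and 0.0656 ± 0.0312 over 155303 pairs. The pairs of receptor bins come from few chromosomes with several arrays, and the difference was not tested. Adjacent receptor bins in B had 0.0776, 0.125 and 0.0987, beside 0.0678, 0.114 and 0.0912 for other adjacent bins in B.

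Zinc finger genes form another large tandem family, and bins with several Zfp genes but no receptor gene were unlike the receptor bins. Of 19 bins with 3 or more Zfp genes and no receptor gene, 31.6% were in B in myoblasts (12.6 to 56.6%) and 36.8% in both kinds of myotube (16.3 to 61.6%), intervals that lie below those of the receptor bins. Their median scaled PC1 was 0.783, 0.761 and 0.723, where the receptor bins had -0.679, -0.623 and -0.576. Receptor bins that also hold Zfp genes were left out of these 19. One such bin on chromosome 4, with Vmn2r-ps17 beside Zfp987, Zfp600 and Zfp992, was in B in all 3 conditions. How far this choice of bins makes the contrast was not tested, nor whether the 19 bins hold tandem arrays. The 19 bins were not matched with the receptor bins for gene number, and each holds 3 or more genes by choice. Of the 868 bins with 5 to 9 protein-coding genes and no receptor gene, 37.7%, 40.7% and 41.5% were in B.

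Most genes listed for receptor signalling, transport, choice and silencing lay in A, as did most other protein-coding genes. Of 32 genes for signal transduction, receptor transport, and receptor choice and silencing, 24 were in bins in A throughout, 7 in B throughout and 1 in both, where 56.8% of other protein-coding genes were in A throughout and 32.0% in B throughout. Odorant signalling runs from the G protein subunit Gnal to the adenylyl cyclase Adcy3 and a cyclic nucleotide-gated channel. Scaled PC1 was 1.01, 1.26 and 1.48 for the bin of Gnal and 0.268, 0.582 and 0.543 for that of Adcy3. The channel subunit gene Cngb1 was in A at 1.18, 1.42 and 1.03, whereas Cnga4 lies inside the class I array, in a bin with 21 receptor genes, and was in B at -0.781, -0.742 and -0.757. Omp, the olfactory marker protein, was in A (1.61, 1.63 and 1.63), as was Gng13 (2.55, 2.15 and 2.02). The calcium-activated chloride channel gene Ano2 was in B, at -0.787, -0.781 and -0.752, and so was Pde1c, a phosphodiesterase gene in a bin with 3 receptor genes. The receptor transport genes Rtp1, Rtp2, Reep1 and the chaperone-like Ric8b were in A, the last rising from 0.636 to 1.25 and 1.66.

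For vomeronasal signalling, the channel gene Trpc2 sits in the first bin of the class I array, which was in A, and Gnai2 and Gng8 were in A too, at 1.72 and 0.753 in myoblasts. Gnao1, the G protein subunit of Vmn2r neurons, was in B at -0.373, -0.389 and -0.567. The formyl peptide receptor genes, some of which serve as vomeronasal receptors, lay in 4 bins that were all in B, 3 of which held 7 or 12 receptor genes, and the 7 H2-M10 genes, whose products accompany Vmn2r receptors, lay in 2 adjacent bins, also in B. Among the regulators of receptor choice, Lhx2, Ldb1, Ebf4 and Atf5 were in A, Ebf1, Ebf3 and Emx2 in B, and Ebf2 went from 0.210 to -0.206 and -0.145. Ebf1 deepened in B from -0.771 to -1.25 and -1.45. The silencing genes Kdm1a, Ehmt1, Ehmt2 and Lbr, the lamin B receptor, which are active in many cell types, were in A, with Ehmt1 lower in myotubes (1.24, 0.333 and 0.117) and Lbr higher (1.60, 1.98 and 2.18).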

How the data were processed

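Hi-C libraries of C2C12 cells, cut with HindIII, were aligned to mm10 with HiCUP and Bowtie and turned into matrices with HOMER by the authors, who kept read pairs near restriction sites and took normalised correlation matrices. The deposited values are a score, the correlation coefficient between the normalised interaction profiles of 2 bins of 500 kb, in 1 matrix per condition that pools 2 replicates. They hold no read counts. Because contacts enter only as correlations, a value reports likeness of patterns, not contact between 2 bins.

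Chromosomes X, Y and M were not used. Bins with a diagonal over 0.5 in all 3 matrices were kept (deposited diagonals were 0 or 1). PC1 was the first component of each within-chromosome block, centred by column, signed by the number of protein-coding TSS. Genes came from GENCODE vM21, promoters and bases from RefSeq GRCm38.p6. Members, gene lists and the rule for named bins (most receptor genes, Taar genes, 10 or more receptor genes and A in any condition, 5 largest rises and falls, 3 lowest profile r, extreme pairs, large clusters) were chosen with earlier results of these data known. No test between conditions was possible. Alternatives varied the component, centring, sign, scale, partner bins, members and chromosomes. The procedures were tested on simulated data. Python 3.11.15, NumPy 2.4.6, pandas 2.3.3 and SciPy 1.17.1 were used.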

Additional observations from a re-analysis of the deposited data

How the results depend on the processing

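The share of receptor bins in B stayed within its counting interval in each condition under another component, without centring, with the sign set by other genes, without weak bins, with protein-coding receptor genes and with any 1 chromosome left out (75.9 to 82.6%). It was 89.7%, 92.2% and 93.1% over bins with 5 or more receptor genes, and 68.8%, 68.8% and 67.7% with each cluster counted once. The smallest PC1 values made up nearly all changes of compartment: without them 0%, 0.637% and 0% of receptor bins changed between the 3 pairs of conditions. The median change of scaled PC1 from myoblasts to myotubes reversed to -0.000839 with the component of other autosomes and to -0.00574 without centring. Left unscaled it was -0.446 for that pair, -0.215 from myoblasts and 0.172 from myotubes to AraC-treated myotubes, and as a percentile rank 1.62, 2.60 and 0.624. Between the 2 kinds of myotube it was 0.0553 without centring. Median profile r for the 3 pairs was 0.839, 0.800 and 0.941 over partner bins of other autosomes and 0.857, 0.817 and 0.913 as Spearman's rank correlation. It was 0.912 between myoblasts and myotubes over bins with 5 or more receptor genes. The mean correlation between chromosomes was 0.0253, 0.0657 and 0.0467 over pairs in B, 0.221, 0.267 and 0.189 divided by the SD of all pairs, and 0.0368, 0.0589 and 0.0453 over pairs on 1 chromosome more than 10 Mb apart. The causes of these shifts were not tested.

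No paired analysis was possible because the replicates were pooled in each matrix before deposit. Differences between conditions have no replicate error, and the matrices give no read number behind a coefficient. Most bins of the Vmn1r and Vmn2r arrays left out on chromosome 7 had no data in any matrix.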
